A study of Mus musculus with 6 samples.

Results

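The 10 genes described here are S100a8, S100a9, Ngp, Camp, Ltf, Lcn2, Retnlg, Mmp8, Mmp9 and Ly6g, a group of neutrophil granule and S100 genes measured in long-term hematopoietic stem cells (LT-HSCs). They were chosen by gene symbol out of 27179 genes in the count table, and all 10 were among the 12179 genes of the authors' normalized table and the 8195 genes kept for testing. RNA-Seq was performed on LT-HSCs sorted as CD150+CD48-LSK cells from the bone marrow of C57BL/6 mice at 8 weeks of age, with 3 WT libraries and 3 Foxm1 heterozygous (Foxm1 HET) libraries, and no treatment was named for either group. The heterozygous mice of the study carry 1 loxP-flanked Foxm1 allele, deleted in some experiments by Tie2-Cre, which is active in endothelial as well as blood cells, and in others by the inducible Mx1-Cre. The study's controls elsewhere include Foxm1 fl/+ mice without Cre. For the RNA-Seq libraries the labels give the genotype alone and the methods name no Cre driver.

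Neutrophils acquire their granules in sequence as they mature. Primary granules, made at the promyelocyte stage, hold myeloperoxidase and serine proteases. Secondary (specific) granules, made at the myelocyte stage, hold lactoferrin, cathelicidin, lipocalin 2 and collagenase, and gelatinase granules follow. S100A8 and S100A9 form calprotectin, a calcium- and zinc-binding complex that is among the most abundant proteins of the neutrophil cytosol. Secondary granule genes are known targets of the transcription factor C/EBPε, and PU.1 and other C/EBP proteins act earlier in the same lineage. LT-HSCs are sorted without mature blood cells. The lineage antibodies used for HSC staining in the study included Gr-1, which binds the product of Ly6g on neutrophils.

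The 10 genes lie on 5 chromosomes of GRCm38. S100a8 (chr3:90669071-90670034, plus strand) and S100a9 (chr3:90692633-90695691, minus strand) are 22.6 kb apart. Camp (chr9:109847377-109849456, minus), Ngp (chr9:110419808-110423012, plus) and Ltf (chr9:111019292-111042766, plus) follow one another on chromosome 9, with gaps of 570.4 kb and 596.3 kb, and Mmp8 (chr9:7558429-7568486, plus) is far from them on the same chromosome. Lcn2 (chr2:32384637-32387739, minus) and Mmp9 (chr2:164948251-164955846, plus) are on chromosome 2, Retnlg (chr16:48872608-48874498, plus) on chromosome 16 and Ly6g (chr15:75155645-75158739, plus) on chromosome 15. Of the 50-base stretches of the transcripts, 0.448% in Ly6g are shared with the related Ly6i and with Gm28116, and none in the other 9 genes are shared with another gene. In Ltf, 14.7% of exon bases overlap a gene on the opposite strand that has 0 counts in every library. Reads of these genes were therefore nearly all assignable to 1 gene.

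Promoter sequences from RefSeq (GRCm38.p6) were found for 9 of the 10 genes, Mmp9 having none in the table used. The 250 bases before each RefSeq start were searched on both strands. The C/EBP motif TTGCNNAA was present in 7 of these 9 genes, compared with 10.86% of 26734 genes searched in the same way. For Ly6g, only the window of the upstream RefSeq start held a match. The matches are shown, as stretches of at most 40 bases, because they are what most of the promoters have in common. Each is written 5′ to 3′ on the strand of the gene, with the matching letters in capitals.
Lcn2, chr2:32387932-32387971, minus strand: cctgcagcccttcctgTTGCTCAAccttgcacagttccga
S100a9, chr3:90695934-90695971, minus strand: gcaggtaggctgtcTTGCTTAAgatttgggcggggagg
Mmp8, chr9:7558394-7558428, plus strand: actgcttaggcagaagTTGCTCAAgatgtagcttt
Ngp, chr9:110419654-110419693, plus strand: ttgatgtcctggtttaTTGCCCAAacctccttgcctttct
Ngp, chr9:110419781-110419807, plus strand: atgtcaccggcagttcTTGGGCAAggc
Ltf, chr9:111019201-111019240, plus strand: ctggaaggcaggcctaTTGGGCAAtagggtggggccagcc
Ly6g, chr15:75155013-75155052, plus strand: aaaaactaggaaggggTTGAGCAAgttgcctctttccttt
Retnlg, chr16:48872358-48872385, plus strand: agctTTCTGCAAggcattccaggcacct

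Ngp was the only one of the 9 with 2 matches, and S100a8 and Camp had none in these 250 bases. Shorter motifs were searched in the same windows. The PU.1 core GAGGAAG was found in Lcn2, Ly6g, Mmp8 and S100a8, 4 of 9 genes, against 12.07% of all genes. The TATA box letters TATAAA were found in S100a8 and Ly6g, 2 of 9 against 14.28%, and the forkhead core TGTTTA in Retnlg and Ly6g, 2 of 9 against 13.54%. None of these motifs shared a base with another in a member's promoter. The promoter of S100a8, one of the genes with no C/EBP match, is shown whole because its product is the partner of S100A9.
S100a8, chr3:90668821-90669070, plus strand: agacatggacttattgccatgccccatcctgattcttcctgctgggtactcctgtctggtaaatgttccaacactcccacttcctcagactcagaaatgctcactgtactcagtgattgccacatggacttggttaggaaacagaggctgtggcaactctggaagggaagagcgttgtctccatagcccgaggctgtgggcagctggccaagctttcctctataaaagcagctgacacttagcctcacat
A match describes letters and is not evidence that a factor binds there. The map of motif positions shows the matches by distance from the start, for the upstream one of the RefSeq starts of Ly6g.

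**Figure D1:**
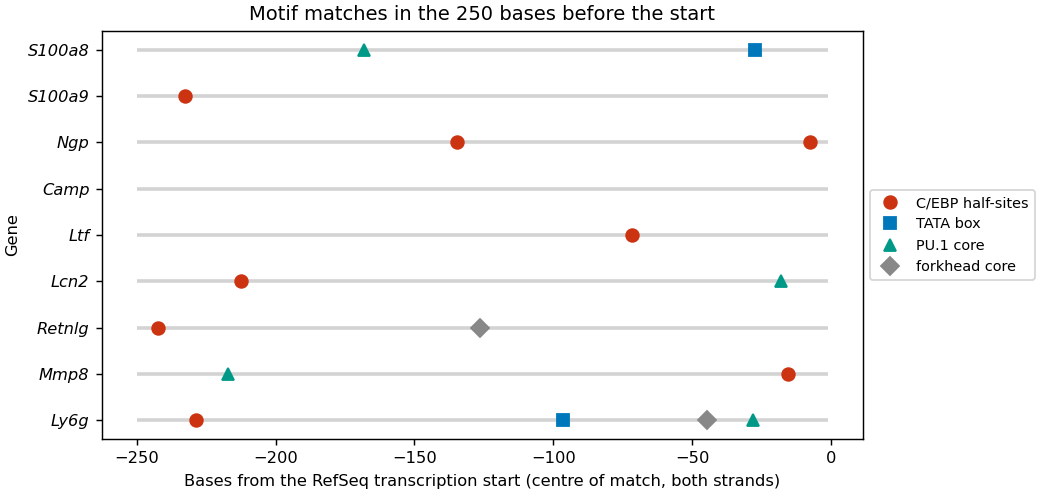
Matches to 4 motifs in the 250 bases before the RefSeq start of 9 genes. The horizontal axis gives the distance of the centre of each match from the start in bases, grey lines are the windows searched, and C/EBP motif matches (red circles) are present in 7 genes, with 2 in Ngp and none in S100a8 or Camp.

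The libraries held between 14573002 and 25798509 counts, and between 4467 and 9894 genes had at least 10 counts. Across the genes kept, log2 CPM of any 2 libraries correlated with r between 0.289 and 0.443 over 15 pairs, a description across genes within these libraries. Libraries of the same genotype were therefore far apart, and the median standard error of a log2 fold change over all genes was 2.59. Foxm1 itself had 1182, 2615 and 2942 counts across WT, against 659, 5 and 742 across Foxm1 HET, so every Foxm1 HET library was below every WT library (log2 fold change -3.30 ± 2.33 SE, edgeR adjusted p = 0.961). Of 16 HSC markers, 14 passed the filter and 9 had over 3 counts in every library. Of the genes behind the sort, Kit, the stem cell factor receptor, had 10720 to 48031 counts. Slamf1, which encodes CD150, had 2, 1572 and 0 counts across WT, against 8, 0 and 543 across Foxm1 HET, and Ly6a, which encodes Sca-1, had 125, 4 and 2 across WT, against 2261, 2 and 1597 across Foxm1 HET. Transcripts of these sort markers were thus at or near 0 in several libraries, although the cells were sorted on their products. The methods name 3 pairs of mice, but the labels tie no library to a mouse, so p-values measure the spread between these libraries.

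Transcripts of the granule and S100 genes were abundant in libraries sorted as stem cells. Levels between genes were compared as TPM, computed here from the counts and the deposited gene lengths. Ngp, which encodes a cystatin-like secondary granule protein, ranked 5th, 9th and 6th among all genes in the 3 WT libraries and 8th and 12th in Foxm1 HET replicates 1 and 2, but 793rd in Foxm1 HET replicate 3. The mean TPM over the 6 libraries was 5689 for Ngp, 4257 for S100a9, 2806 for S100a8 and 2176 for Lcn2. Camp, Ltf, Retnlg, Mmp8 and Ly6g followed at 569, 325, 204, 172 and 111 TPM, and Mmp9 was lowest at 19.0 TPM. Lcn2 was above Camp in every library, but all other neighbours in this order changed places in at least 1 library. In WT replicate 1, for example, Ltf had 780 TPM and Camp 243 TPM. Single genes varied widely, Camp from 141 to 1495 TPM and Ltf from 60.2 to 780 TPM.

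S100a8, S100a9, Ngp, Camp, Ltf and Lcn2 each had over 500 counts in every library, a level that 8.48% of the genes kept reached (695 of 8195). Retnlg and Ly6g had over 3 counts in 5 libraries and Mmp9 in 3. The summed TPM of the 10 genes was 17999, 16902 and 32913 across WT, against 16153, 11889 and 2117 across Foxm1 HET. The library with the least was thus Foxm1 HET replicate 3 and that with the most WT replicate 3. Fewer cells of a type and less RNA per cell cannot be told apart in such bulk libraries.

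**Figure D2:**
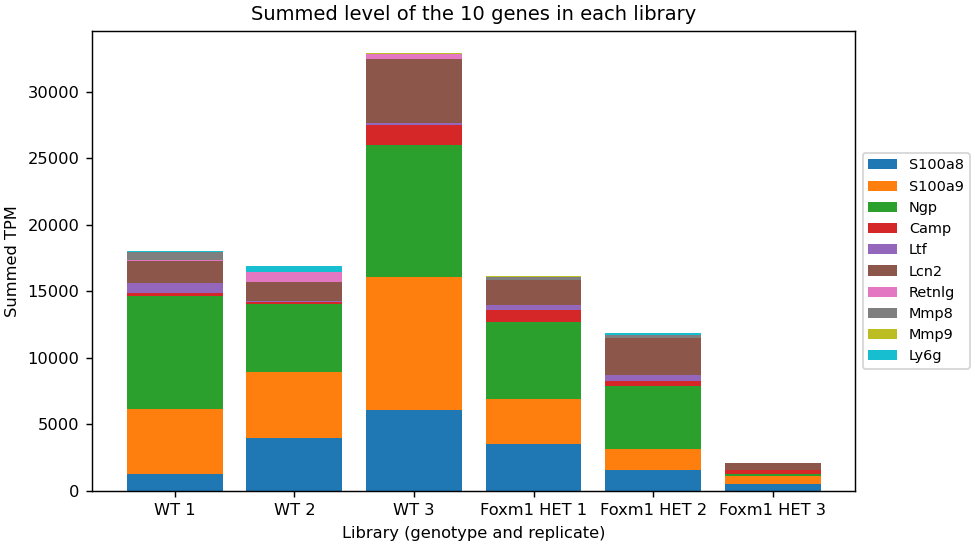
Summed TPM of the 10 genes (vertical axis) in each of the 6 libraries, with 1 colour per gene. Ngp, S100a8, S100a9 and Lcn2 make up most of each bar, and the bars run from 2117 TPM in Foxm1 HET replicate 3 to 32913 TPM in WT replicate 3.

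Averaged over libraries, the summed TPM was 22605 ± 8944 (SD, n = 3) for WT libraries, against 10053 ± 7196 (SD, n = 3) for those of Foxm1 HET. Without Foxm1 HET replicate 3 the Foxm1 HET mean was 14021. As a share of all counts, the 10 genes took 0.826%, 0.519% and 1.23% across WT, against 0.648%, 0.519% and 0.0624% across Foxm1 HET. WT replicate 2 and Foxm1 HET replicate 2 therefore had nearly the same share, and on this unscaled measure the genotypes overlapped. They also overlapped in summed CPM, at 5286 in WT replicate 2 against 11689 in Foxm1 HET replicate 2. In summed TPM they did not, but WT replicate 2 (16902) and Foxm1 HET replicate 1 (16153) were close. The makeup of the sum also differed between libraries: Ngp gave 30.0% to 47.0% of the summed TPM in 5 libraries and 7.38% in Foxm1 HET replicate 3. S100a8 and S100a9 together gave 34.3%, 53.0% and 49.0% across WT, against 42.6%, 26.7% and 50.5% across Foxm1 HET, so their share in Foxm1 HET replicate 3 was within the range of the other libraries.

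To ask whether deletion of 1 Foxm1 allele changed these genes in LT-HSCs, each was compared between genotypes by edgeR (quasi-likelihood test), and p-values were adjusted by Benjamini-Hochberg across all 8195 genes kept. None of the 10 passed an adjusted p of 0.05, whereas 27 of all genes did (0.329% of those tested, and 0.0122% with Foxm1 HET lower). Retnlg alone had an unadjusted p under 0.05, a threshold that 6.03% of all genes passed, and 2.59% with Foxm1 HET lower. DESeq2 gave an adjusted p to 9 of the 10, all but Ly6g, and called none of them, beside 3.13% of all genes to which it gave one. limma-voom called 1, Ngp, beside 0.0488% of all genes. The fitted fold change was below 0, that is lower in Foxm1 HET, in 8 of the 10 genes, compared with 54.6% of all genes, and this count ran from 5 of 10 without Foxm1 HET replicate 3 to 9 of 10 without WT replicate 2 or Foxm1 HET replicate 2. The median log2 fold change of the 10 genes was -0.67 and that of all genes -0.26.

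S100a8 and S100a9 were both lower on average in Foxm1 HET, and only S100a9 separated the genotypes. S100a9 had 22202, 24207 and 52419 counts across WT, against 20113, 5174 and 3150 across Foxm1 HET. As CPM, that is counts scaled to library size and by the TMM factor, this was 1004, 1071 and 3277 in WT against 528, 799 and 75.3 in Foxm1 HET. Every Foxm1 HET library was below every WT library, on this scale and also by library size alone, in TPM and in the authors' normalized values, but under the RLE scaling of DESeq2 the groups overlapped. The mean log2 CPM was 10.57 ± 0.96 (SD, n = 3) for WT libraries, against 8.31 ± 1.82 (SD, n = 3) for those of Foxm1 HET. By edgeR the fitted log2 fold change was -1.93 ± 1.36 (SE), with an adjusted p of 0.961, and a two-sided exact permutation test of the means gave p = 0.1, the smallest that 3 against 3 libraries allow. Without Foxm1 HET replicate 3 the fitted value was -1.40 ± 1.49.

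S100a8 had 4503, 15351 and 25650 counts across WT, against 16638, 4096 and 2002 across Foxm1 HET. Its CPM was 204, 679 and 1604 across WT, against 437, 633 and 47.9 across Foxm1 HET. WT replicate 1 lay below both Foxm1 HET replicates 1 and 2, so the genotypes overlapped (log2 fold change -1.15 ± 1.45 SE, adjusted p = 0.998, exact permutation p = 0.4). The fitted value ran from -1.70 without Foxm1 HET replicate 2 to -0.27 without WT replicate 3. The ratio of S100a9 to S100a8 in TPM was 3.96, 1.27 and 1.64 across WT, against 0.971, 1.01 and 1.26 across Foxm1 HET. The transcripts of the calprotectin partners were thus not at a fixed ratio in these libraries, and WT replicate 1 was the farthest from the rest.

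**Figure D3:**
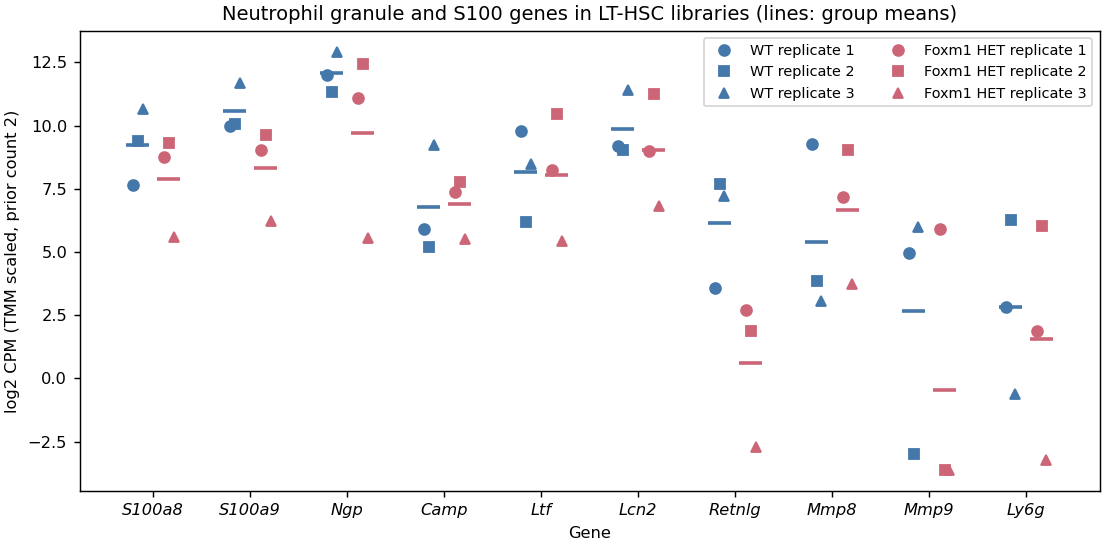
Log2 CPM (TMM-scaled, prior count 2) of each of the 10 genes in each library, WT in blue and Foxm1 HET in red, with symbols for the replicates and lines for the group means. S100a9 and Retnlg are the genes in which all Foxm1 HET points lie below all WT points, and Foxm1 HET replicate 3 (red triangles) has the lowest point in 7 genes and ties for it in Mmp9.

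Among Ngp, Lcn2, Camp, Ltf and Mmp8, the secondary granule genes of the 10, Ngp had the highest level and the largest difference between the means of the genotypes. It had 90503, 58729 and 123102 counts across WT, against 82301, 36215 and 1959 across Foxm1 HET. Its CPM was 4092, 2599 and 7697 across WT, against 2160, 5594 and 46.8 across Foxm1 HET. In CPM, Foxm1 HET replicate 2 lay within the WT range and replicate 1 just under it. In TPM they changed places, with replicate 1 (5833) within the WT range (5106 to 9884) and replicate 2 (4703) under it. The TMM factor was 1.13, 1.01 and 0.757 across WT, against 1.54, 0.453 and 1.67 across Foxm1 HET. On either scale, Foxm1 HET replicate 3 was more than an order of magnitude below every other library. The log2 fold change fitted by edgeR was -0.88 ± 1.14 (SE; adjusted p = 0.998) with all libraries. It became -0.31 ± 1.14 when Foxm1 HET replicate 3 was left out and -2.04 ± 0.92 when replicate 2 was. With all libraries, the difference of the mean log2 CPM was -2.39 (exact permutation p = 0.4). limma-voom, which works on log values, gave -3.33 with an adjusted p of 2.05e-06, the lower end of a range that reached 1 over the alternatives. The spread within Foxm1 HET was a 119-fold range of CPM, against 2.96-fold within WT.

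Lcn2, which encodes the siderophore-binding protein lipocalin 2, had 12803, 11950 and 44107 counts across WT, against 19735, 15721 and 4706 across Foxm1 HET. Its CPM was 579, 529 and 2758 across WT, against 518, 2428 and 112 across Foxm1 HET. Foxm1 HET replicate 2 was second only to WT replicate 3, and the genotypes overlapped. The fitted log2 fold change was -0.34 ± 1.32 (SE; adjusted p = 0.998) and had the other sign without WT replicate 3 (0.86), without Foxm1 HET replicate 3 (0.17) and under RLE scaling (0.46).

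Camp, the gene of the antimicrobial peptide cathelicidin, had 1342, 834 and 9604 counts across WT, against 6412, 1418 and 1928 across Foxm1 HET. Its CPM was 60.7, 36.9 and 600 across WT, against 168, 219 and 46.1 across Foxm1 HET. WT replicate 3 stood above all other libraries and WT replicate 2 below them. The fitted log2 fold change was -0.69 ± 1.70 (SE; adjusted p = 0.998) but 1.54 without WT replicate 3, and the mean log2 CPM was 6.79 ± 2.14 (SD, n = 3) for WT libraries, against 6.90 ± 1.20 (SD, n = 3) for those of Foxm1 HET. Within Foxm1 HET, replicate 3 was again the lowest in CPM, although its 1928 counts were more than the 1418 of the smaller replicate 2 library.

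Ltf, which encodes the iron-binding protein lactoferrin, had 19725, 1635 and 5773 counts across WT, against 11543, 9178 and 1810 across Foxm1 HET. Its CPM was 892, 72.4 and 361 across WT, against 303, 1418 and 43.3 across Foxm1 HET. It was the one gene of the 10 whose highest CPM was in Foxm1 HET replicate 2. In TPM, Ltf was highest in WT replicate 1 (780, against 505 in Foxm1 HET replicate 2). The fitted log2 fold change was 0.41 ± 1.46 (SE; adjusted p = 0.998), and it was below 0 without WT replicate 2 (-0.11), without Foxm1 HET replicate 2 (-1.28) and with scaling to library size only (-0.19). The difference of its mean log2 CPM was -0.11.

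Both metalloproteinases varied widely between libraries. Mmp8, neutrophil collagenase, had 13601, 324 and 133 counts across WT, against 5474, 3429 and 550 across Foxm1 HET. A 73.9-fold range of CPM within WT left the genotypes overlapping (615, 14.3 and 8.32 CPM in WT and 144, 530 and 13.1 CPM in Foxm1 HET). The fitted log2 fold change was 0.11 ± 1.64 (SE; adjusted p = 0.998). It reached 4.29 without WT replicate 1, the library with most Mmp8, and turned below 0 without WT replicate 2 (-0.47), WT replicate 3 (-0.48) or Foxm1 HET replicate 2 (-1.37).

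Mmp9, gelatinase B, had 686, 1 and 1021 counts across WT, against 2286, 0 and 0 across Foxm1 HET. It was present in 3 libraries and at or near 0 in the other 3, in both genotypes. A count of 0 allows up to 3 counts, which is 0.463 CPM in Foxm1 HET replicate 2 and 0.0717 CPM in replicate 3, and covers counting error only. The fitted log2 fold change of -0.66 ± 2.62 (SE; adjusted p = 0.998) came to -12.36 without Foxm1 HET replicate 1, the only library of its genotype with counts, a value that depends on the prior count because the rest of Foxm1 HET was at 0, and to 0.33 without WT replicate 3 and 0.07 without Foxm1 HET replicate 3.

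Retnlg, which encodes a resistin-like protein made by neutrophils and their late precursors, had the largest fitted difference of the 10. It had 260, 4639 and 2403 counts across WT, against 245, 23 and 3 across Foxm1 HET. Its CPM was 11.8, 205 and 150 across WT, against 6.43, 3.55 and 0.0717 across Foxm1 HET. All Foxm1 HET libraries were below all WT libraries under each of the 5 scalings compared, although WT replicate 1 and Foxm1 HET replicate 1 were close. The mean log2 CPM was 6.16 ± 2.26 (SD, n = 3) for WT libraries, against 0.62 ± 2.91 (SD, n = 3) for those of Foxm1 HET. By edgeR the fitted value was -5.19 ± 2.57 (SE), with an unadjusted p of 0.0431 and an adjusted p of 0.786, and the exact permutation p was 0.1. Leaving out 1 library at a time gave -6.16 to -4.55.

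Ly6g, whose product is the surface antigen used to recognise mouse neutrophils, had 156, 1761 and 9 counts across WT, against 138, 419 and 1 across Foxm1 HET. The libraries labelled replicate 2 of each genotype had the most, at 77.9 CPM in WT and 64.7 CPM in Foxm1 HET, and replicate 3 of each the least, at 0.563 and 0.0239 CPM. The fitted log2 fold change was -0.33 ± 2.62 (SE; adjusted p = 0.998), and it changed sign without WT replicate 2 (2.56), without Foxm1 HET replicate 1 (0.09) or 3 (0.19), and under RLE scaling (0.66). Ly6g was at 9 counts in WT replicate 3, the library with the most S100a8, S100a9, Ngp, Camp and Lcn2. The surface antigen and the granule transcripts did not have the same order over the libraries.

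Over the 10 genes, 2 (S100a9 and Retnlg) had no overlap between genotypes with Foxm1 HET lower, beside 4.55% of all genes, and 0 had none with Foxm1 HET higher, beside 4.12% (8.68% in either direction). S100a8, S100a9, Ngp and Retnlg were fitted below 0 in every alternative run for them. The other 6 genes changed sign in at least 1 alternative, and their exact permutation p-values lay between 0.4 and 0.9. Foxm1 HET replicate 3 had the lowest CPM in 7 of the 10 genes, compared with 7.74% of all genes, and tied with replicate 2 at 0 for Mmp9 (9.69% of all genes with ties counted). The exceptions were Camp, lowest in WT replicate 2, and Mmp8, lowest in WT replicate 3. The highest CPM was in WT replicate 3 for 6 genes, in WT replicate 2 for Retnlg and Ly6g, in WT replicate 1 for Mmp8 and in Foxm1 HET replicate 2 for Ltf. These tallies depend on the scale. In TPM, Mmp9 was highest in Foxm1 HET replicate 1 (59.9, against 30.3 in WT replicate 3) and Ltf in WT replicate 1. The lowest TPM of Ltf was in WT replicate 2 (60.2, against 61.1 in Foxm1 HET replicate 3).

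**Figure D4:**
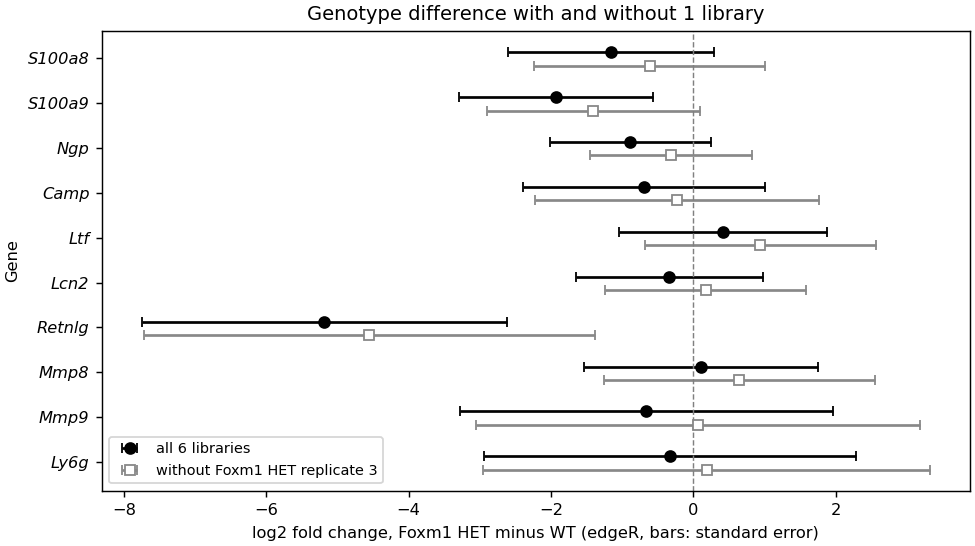
Log2 fold change of Foxm1 HET over WT by edgeR (horizontal axis) with standard errors as bars, for all 6 libraries (black) and without Foxm1 HET replicate 3 (grey). Lcn2, Mmp9 and Ly6g are on the other side of 0 without that library, and Retnlg stays farthest from 0 at -5.19 and -4.55.

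Other neutrophil genes were read from lists of the pathway, none of whose members passed an adjusted p of 0.05. Directions for these lists were taken with TMM scaling alone and are best read against the median of all genes, -0.26. Of 8 primary granule genes in the table, 5 passed the filter; 3 were fitted higher in Foxm1 HET and 2 were fitted lower, and the median fold change was 0.05 on the log2 scale. Mpo, myeloperoxidase, had 78639, 7235 and 73305 counts across WT, against 43606, 46734 and 16070 across Foxm1 HET, and Elane, neutrophil elastase, had 13009, 1134 and 5126 across WT, against 12594, 53 and 3510 across Foxm1 HET. Lyz2, lysozyme, had 74365, 39749 and 77162 counts across WT, against 96731, 8161 and 19230 across Foxm1 HET. Of these 3 genes, Lyz2 alone had its lowest CPM in Foxm1 HET replicate 3. Prtn3, proteinase 3, named here after its values were seen, had 13, 71 and 2 counts across WT, against 1197, 365 and 5247 across Foxm1 HET (log2 fold change 5.78 ± 3.0 SE, edgeR adjusted p = 0.844). Its order of libraries was thus unlike that of the secondary granule genes, with the most in Foxm1 HET replicate 3.

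Of 24 other secondary and gelatinase granule genes, 14 passed the filter, 4 were fitted higher and 10 were fitted lower, and the median was -1.22 on the log2 scale. Chil3, a chitinase-like protein of neutrophil precursors and macrophages, had 9383, 6546 and 19732 counts across WT, against 16491, 3146 and 1888 across Foxm1 HET. Its log2 CPM followed the mean of the 10 genes closely over the 6 libraries (Pearson r = 0.968, with no test), and 29 of 8185 other genes had r above 0.9, with Scpep1, F630028O10Rik and Wdfy2 above Chil3. The subunit of the NADPH oxidase encoded by Cybb had 13795 to 17556 counts in WT, 19126 and 14305 in Foxm1 HET replicates 1 and 2, and 277 in replicate 3. Itgb2, the integrin beta chain shared by leukocytes, had 30069 counts in Foxm1 HET replicate 2 and 1774 to 10159 in the others. In CPM, both genes were highest in Foxm1 HET replicate 2 (2210 for Cybb and 4645 for Itgb2). Both were lowest in Foxm1 HET replicate 3 (6.62 and 47.0). Pglyrp1, a peptidoglycan-binding granule protein that was chosen after its values were seen, had 595, 1493 and 7139 counts across WT, against 348, 2 and 55 across Foxm1 HET (log2 fold change -5.64 ± 2.39 SE, edgeR adjusted p = 0.613). Like S100a9 and Retnlg it had no overlap between genotypes.

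Of 24 neutrophil surface and signalling genes, 9 passed the filter, 2 fitted higher and 7 lower (median log2 fold change -0.54). Their summed CPM ran from 708 to 3091 in WT and was 583, 602 and 228 for Foxm1 HET. In summed TPM the genotypes overlapped, at 825 in WT replicate 2 against 1110 in Foxm1 HET replicate 1. Csf3r, the G-CSF receptor, had 6584, 3693 and 29283 counts across WT, against 3856, 584 and 5733 across Foxm1 HET (log2 fold change -2.80 ± 1.60 SE, edgeR adjusted p = 0.906), without overlap in CPM. In TPM its genotypes overlapped, at 92.1 in WT replicate 2 against 131 in Foxm1 HET replicate 3. Cxcr2, the chemokine receptor of mature neutrophils, had 5986 counts in WT replicate 1 and at most 12 in any other library, and was named after its values were seen. G0s2 and Asprv1, genes of mature neutrophils that were likewise named after their values were seen, had 0 counts in all 6 libraries. Some other genes of this list had most of their counts in 1 library, such as Il1r2 and Clec4e, both likewise named after their values were seen. Il1r2, the decoy receptor of interleukin 1, had 127, 1313 and 0 counts across WT, against 7, 0 and 0 across Foxm1 HET. Clec4e, a C-type lectin receptor, had 1, 0 and 3186 counts across WT, against 559, 4 and 0 across Foxm1 HET. The genes of the mature cell surface were thus detected unevenly between libraries. Among 9 granulocyte transcription factors, 7 passed the filter, 2 fitted higher and 5 lower (median log2 fold change -1.25). Those fitted higher were Cebpg (4.53 ± 2.10 SE, edgeR adjusted p = 0.745) and Gfi1 (5.45 ± 2.65 SE, adjusted p = 0.776), Gfi1 being named after its values were seen. Cebpg had 660, 38 and 21 counts across WT, against 21857, 10 and 7695 across Foxm1 HET. Cebpe, the gene of C/EBPε, also named after its values were seen, had 104 counts in WT replicate 3 and 0 in the other 5 libraries. Spi1, the gene of PU.1, had 483, 465 and 4502 counts across WT, against 1763, 1657 and 368 across Foxm1 HET.

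Of 12 genes for receptors, partners and inhibitors of these proteins, 7 passed the filter, 3 fitted higher and 4 lower (median log2 fold change -1.82). Bsg, the gene of basigin, a binding partner of S100A9, had 9753, 37 and 9428 counts across WT, against 6911, 5939 and 890 across Foxm1 HET. Named after their values were seen, Tlr4, a receptor for S100A8 and S100A9, had 266, 0 and 372 counts across WT, against 378, 0 and 0 across Foxm1 HET, and Ager, the other well-known receptor, had 0 in all. Of 14 other S100 genes, 9 had 0 counts in every library and 4 passed the filter, 1 fitted higher and 3 lower (median log2 fold change -1.88); S100a11, S100a4 and S100a10 had the highest mean TPM of them, at 234, 234 and 137 TPM. Of 14 other Mmp genes, 7 had 0 counts in every library and 1 passed the filter, fitted lower at -3.72. The mean TPM of S100a8 and S100a9 was thus above that of every other S100 gene listed.

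The levels of the 10 genes were set beside those of cell types that a sort of bone marrow could hold. The summed CPM of the 10 genes was 7495, 5286 and 16520 across WT, against 4328, 11689 and 385 across Foxm1 HET. That of the primary granule genes was 7572, 2133 and 9811 across WT, against 4085, 8690 and 1060 across Foxm1 HET, and that of the other secondary and gelatinase granule genes was 3430, 1717 and 6735 across WT, against 2635, 8576 and 345 across Foxm1 HET. All 3 sums were lowest in Foxm1 HET replicate 3. The HSC markers gave 2928, 8464 and 5362 CPM across WT, against 2970, 13764 and 3859 across Foxm1 HET. Their sum in Foxm1 HET replicate 3 lay within the range of the other libraries, and 1 of the 14 markers past the filter had its lowest CPM there. Of the 14 tested, 7 were fitted higher in Foxm1 HET and 7 lower.

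Of 12 monocyte and macrophage markers, 6 passed the filter (2 fitted higher, 4 lower) and 3 had 0 counts in every library. Their summed CPM ran from 97.6 to 681 in WT and was 328, 2462 and 14.4 in Foxm1 HET, so this list too was lowest in Foxm1 HET replicate 3. Of 9 erythroid markers, 7 passed the filter and all 7 were fitted lower (median log2 fold change -2.65), and the sum was 388 to 2341 CPM in WT and 216 to 518 CPM in Foxm1 HET. B cell markers summed to 273 to 1825 CPM in WT and 51.0 to 206 CPM in Foxm1 HET, with 2 of 9 past the filter, both fitted lower, and 5 at 0 throughout. The B cell sum in TPM overlapped between genotypes, at 235 in WT replicate 3 against 535 in Foxm1 HET replicate 3. T and NK cell markers (4 of 9 past the filter) summed to 11.9 to 413 CPM, megakaryocyte markers (1 of 8) to 6.78 to 389 CPM, and eosinophil, basophil and mast cell markers (1 of 7) to 0.12 to 522 CPM. In each library the summed CPM of the 10 genes exceeded that of each of these other lineages, most narrowly in Foxm1 HET replicate 3, where the erythroid sum was 352 CPM. Whether other cells passed the sort, and what part they had in the values of the 10 genes, was not tested.

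**Figure D5:**
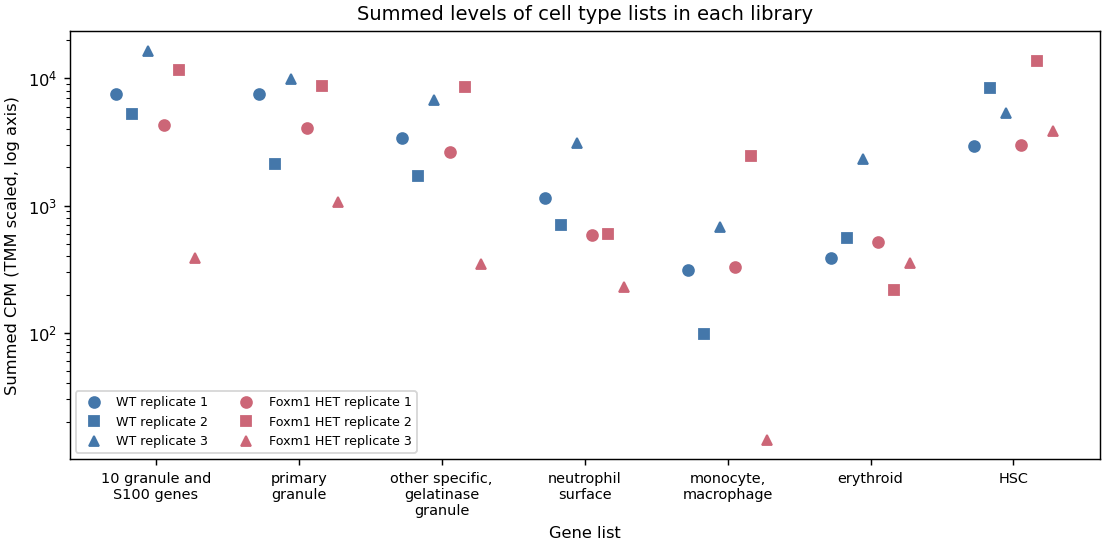
Summed CPM (vertical log axis, TMM-scaled) of the 10 genes and of 6 other lists in each library, WT in blue and Foxm1 HET in red. The sums for the 10 genes, the granule lists and the monocyte list are lowest in Foxm1 HET replicate 3 (385 CPM for the 10 genes), whereas the HSC marker sum there, 3859 CPM, is within the range of the other libraries.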

How the data were processed

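Per the submitters' processing notes and the study's methods, single reads of 50 bases were aligned by the authors to GRCm38 with STAR 2.7.2b, and limma was named. The counting program and the use of strand are not given in the sources used here. The authors deposited raw counts per gene for 27179 genes, with gene lengths, and a normalized table on a log2 scale for 12179 genes. Symbols came from that table or RefSeq and named 94.1% of identifiers. 0 columns of other samples were present. Library preparation is described differently in the labels and the methods, so the kit is not stated here. From the counts, TMM-scaled CPM, log2 CPM (prior count 2) and TPM were computed. Genotypes were compared with edgeR 4.0.16 in R 4.3.3 (filterByExpr, quasi-likelihood test, Benjamini-Hochberg over 8195 genes, adjusted p under 0.05), and each gene also with a two-sided exact permutation test. limma 3.58.1 (voom, and limma on the deposited log2 values) and DESeq2 1.42.0 served as alternatives. The edgeR step was tested on simulated counts. SE is the fold change divided by the root of the F statistic. TPM used deposited lengths, which assumes reads over the whole transcript.

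The 10 genes and all lists were chosen with earlier results of these data known. Of 187 listed genes 185 were in the table. Named besides the 10 were, per list, up to 3 genes of highest mean TPM, up to 4 whose log2 CPM was most like the mean of the 10, and genes said to be chosen after their values were seen. The exact tests were made on 10 genes and are not adjusted.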

Additional observations from a re-analysis of the deposited data

How the results depend on the processing

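Genes called between genotypes numbered 27, and 10 with RLE scaling, 43 with upper-quartile scaling, 7 with library size only, 36 without the filter, 0 with at least 10 counts in every library (157 at an unadjusted p under 0.05), 4 with limma-voom, 0 with limma on the deposited values (576 unadjusted) and 194 with DESeq2; without 1 library they ran from 0 to 29. Same-numbered libraries did not deviate together (r = 0.0162, -0.0253 and -0.0687). With libraries this far apart, such values cannot tell whether the numbers pair them. A replicate block called 0 genes (108 unadjusted). Of the 10 genes, none was called except Ngp by limma-voom (1 gene). Genes of the 10 fitted higher in Foxm1 HET numbered 2, but 4 with RLE scaling, 1 with library size only, 0 with at least 10 counts in every library (7 genes left), 4 with DESeq2, 1 with limma-voom and 1 to 5 without 1 library. Genes without overlap numbered 2, but 1 with RLE scaling, an alternative chosen after seeing the data, as were all others for that count and the summed level without Foxm1 HET replicate 3.

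Signs changed with RLE scaling for Lcn2 (0.46) and Ly6g (0.66), with DESeq2 for Lcn2 (0.46) and Ly6g (0.66), and with upper-quartile scaling for Lcn2 (0.019). They changed with library size only for Ltf (-0.19; its difference of mean log2 CPM to 0.041), Mmp8 (-0.56) and Mmp9 (0.15), and with at least 10 counts for Ltf (-0.038) and Mmp8 (-0.39). With the replicate block they changed for Ltf (-0.74) and Camp (0.57), with limma-voom for Ltf (-0.87), and with the deposited values for Ltf (-0.12) and Camp (0.49). Without 1 library the log2 fold change ran from -1.21 to 1.54 for Camp, -1.28 to 1.41 for Ltf, -1.96 to 0.86 for Lcn2, -1.37 to 4.29 for Mmp8, -12.36 to 0.33 for Mmp9 and -3.91 to 2.56 for Ly6g; it ran from -1.70 to -0.27 for S100a8, -2.49 to -1.18 for S100a9, -2.04 to -0.31 for Ngp and -6.16 to -4.55 for Retnlg. Of 147 alternative fold changes, 118 kept their sign and 29 did not; S100a8, S100a9, Ngp and Retnlg kept theirs throughout. The median of all genes was -0.26 with TMM, -0.13 with RLE, 0.14 with upper-quartile and 0.10 with library size scaling. The causes were not tested.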
